A study of Bos taurus with 18 samples.

Results

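MYH10 and NDEL1 are neighbouring genes on BTA19, and their sperm DNA methylation was examined in 18 Holstein bulls. All CpG positions listed for at least 1 bull within either gene or within 2000 bp on each side were taken, which gave 3776 positions of 40640718 in the whole series. MYH10 lies on chromosome 19 from 28679649 to 28801223 and NDEL1 from 28619753 to 28679896 in the UMD 3.1 cattle genome. The window of MYH10 held 2803 positions and that of NDEL1 held 1108, with 135 positions in both windows. The annotated genes overlap by 248 bp, which held 2 of these positions, and the others lay in the flanks of 2000 bp.

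The samples were semen of adult, fertile, age-matched Holstein bulls of an artificial insemination company, and no treatment was given. For the traits that the study describes, bulls were grouped by a high or a low predicted transmitting ability. This is the genetic merit that a bull passes to its progeny for a trait. For gestation length (GL) the high bulls were H03, H09, L03 and L05 and the low bulls H02, H05, L01 and L07. For sire calving ease (SCE) the high bulls were H03, H07 and L02 and the low bulls H01, H06 and L09. For body depth (BDE) the high bulls were H02, L03 and L08 and the low bulls H05, H09 and L02. For cow conception rate (CCR) H08, H09 and L06 were high and H06, L08 and L09 were low. For sire conception rate (SCR), a trait given in the sample labels only, H01, H02 and H03 were the high bulls and L01, L02 and L03 the low bulls. The labels do not name the measure behind the SCR groups. The labels put H04 and L04 in no group, so these bulls were left out of all comparisons between groups. The traits share bulls, with 4 in common between GL and BDE and 4 between GL and SCR, so their comparisons are not independent of each other. The letter in a bull's name does not give its group for GL, SCE, BDE or CCR.

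MYH10 encodes the heavy chain of nonmuscle myosin IIB, a motor protein that pulls on actin filaments during cell division, adhesion and migration. NDEL1 encodes a NudE-like protein that binds LIS1 and cytoplasmic dynein, the motor that moves cargo along microtubules, and takes part in nuclear movement and spindle function. Both genes were fine-mapped for gestation length in the study, as was DNAH2, an axonemal dynein heavy chain gene on the same chromosome. In mammalian sperm most CpG sites are methylated, and the unmethylated ones lie mainly in CpG-rich stretches such as promoters. RefSeq places RPL26 and CCDC42 on the outer sides of the pair, in the order RPL26, NDEL1, MYH10, CCDC42 in a later cattle assembly. The strand of the genes was not used here, so which stretch lies at a promoter is not stated.

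In bisulfite sequencing only methylated cytosines are read as cytosine, and methylation is given as the percent of reads with a cytosine. A position entered a bull's list when at least 10 reads covered it, and the cytosines of both strands of a CpG were separate positions. The bulls listed between 2858992 positions in H01 and 22048556 in H08 over the genome, and their mean methylation was 76.8% to 85.0%. Within MYH10 the bulls listed 197 to 1855 positions (median 669.5), and within NDEL1 58 to 630 (median 227.5). No position was listed in all 18 bulls, 3 were listed in 17, and 683 were listed in a single bull. Read coverage was given for 6 bulls, in which the median was 11 reads per position outside the unmethylated stretches. The depth of the other 12 is unknown.

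Both genes were highly methylated along most of their length. Of the 984 MYH10 positions listed in at least 6 bulls, 901 (91.6%) had a median over bulls of at least 90%, and 612 (62.2%) had a median of 100%. Of the 297 such NDEL1 positions, 262 (88.2%) were at 90% or above and 181 (60.9%) at 100%. Intermediate medians between 20% and 80% were found at 34 MYH10 positions (3.46%) and 9 NDEL1 positions (3.03%). Medians under 20% were found at 23 MYH10 positions (2.34%) and 16 NDEL1 positions (5.39%). The junction of the genes, meaning their overlap with 1000 bp on each side, was methylated at 94.6% on average over 80 positions and 18 bulls.

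**Figure D1:**
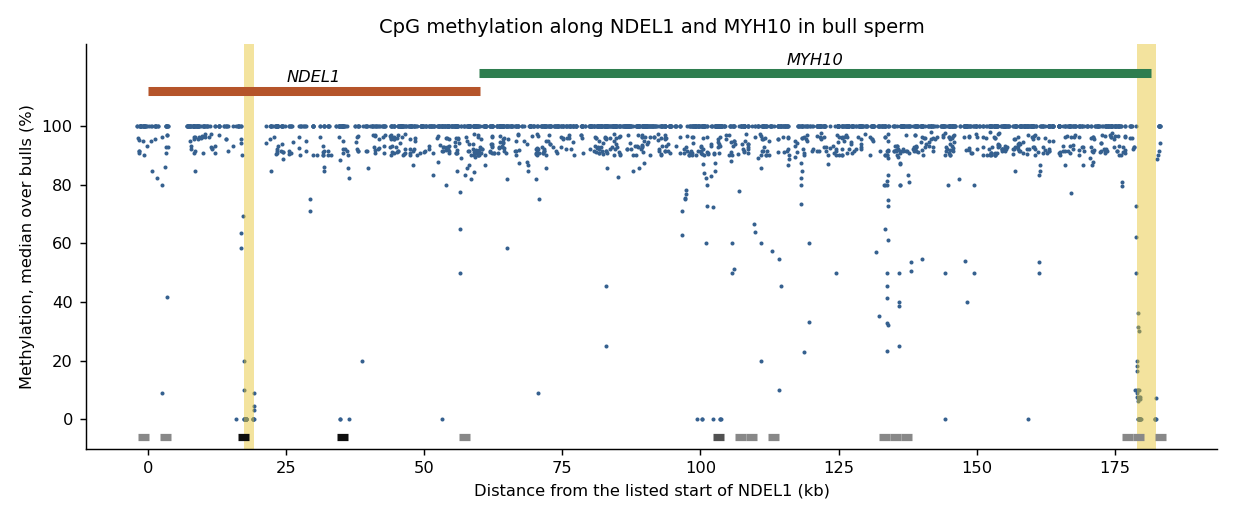
Methylation along NDEL1 and MYH10. The horizontal axis is the distance from the listed start of NDEL1 in kb and the vertical axis the median methylation over bulls in percent at each position. Most positions sit at or above 90%, with a dense low stretch inside NDEL1 and another at the listed end of MYH10.

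Each gene held 1 unmethylated stretch. Stretches were runs of at least 10 consecutive positions, each listed in at least 6 bulls and with a median under 20%, and their low level is thus a property of the choice. In NDEL1 the run went from 28637182 to 28637474, covering 18 positions. When it was extended on each side until 2 consecutive positions had a median of at least 50%, it went from 28637138 to 28639056, a length of 1919 bp that began 17.39 kb inside the listed start of NDEL1. It held 102 positions and 259 single values in 17 bulls, with a mean of 3.08%, and 77.2% of the values were exactly 0. Of the 102 positions, 69 were listed in 1 bull only and 15 in at least 6 bulls, so much of its length rests on few bulls. H01, the bull with the fewest positions, listed none of it.

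The bulls' own means over the NDEL1 stretch were 0% at the lowest, 2.79% at the median and 25% at the highest. The highest belonged to L08 and rested on 2 positions, at 0% and 50%. The stretch had 5.32 listed positions per 100 bp, against 1.73 over the whole NDEL1 window. Its border on the side of the NDEL1 start was steep, with a median of 90% at 28636803, 69.2% at 28636930 and 20% at 28637138. On the other side the median rose from 15% at 28639056 to 80% at 28640792, and no position was listed in the 1736 bp between them. A CpG just outside the steep border had intermediate medians of 63.6% and 58.6% on its strands at 28636668 and 28636669, between neighbours at 90% or above.

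In MYH10 the run went from 28798963 to 28799310 and covered 19 positions. Its extended form went from 28798680 to 28802115, a length of 3436 bp that spanned the listed end of the gene, from 2.54 kb inside to 0.89 kb outside. It held 69 positions and 265 values in all 18 bulls, with a mean of 6.96%, and 55.1% of the values were 0. Of the 69 positions, 23 were listed in 1 bull only and 20 in at least 6 bulls. Bull means were 0% at the lowest in L03, 6.77% at the median and 17.6% at the highest in L08, with 2 and 3 positions listed in those bulls. The MYH10 stretch had 2.01 listed positions per 100 bp, close to the 2.23 of the MYH10 window, and its longest gap without a listed position was 1018 bp. Its run of 19 positions had 5.46 per 100 bp, against 6.14 for the run in NDEL1. These counts depend on which positions reached 10 reads, so they do not give the density of CpG. On the inner side, positions from 28798494 to 28798613 had medians from 50% to 100%, before a median of 20% at 28798680. On the outer side the median rose from 0% at 28802115 to 88.9% at 28802430, over 315 bp.

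**Figure D2:**
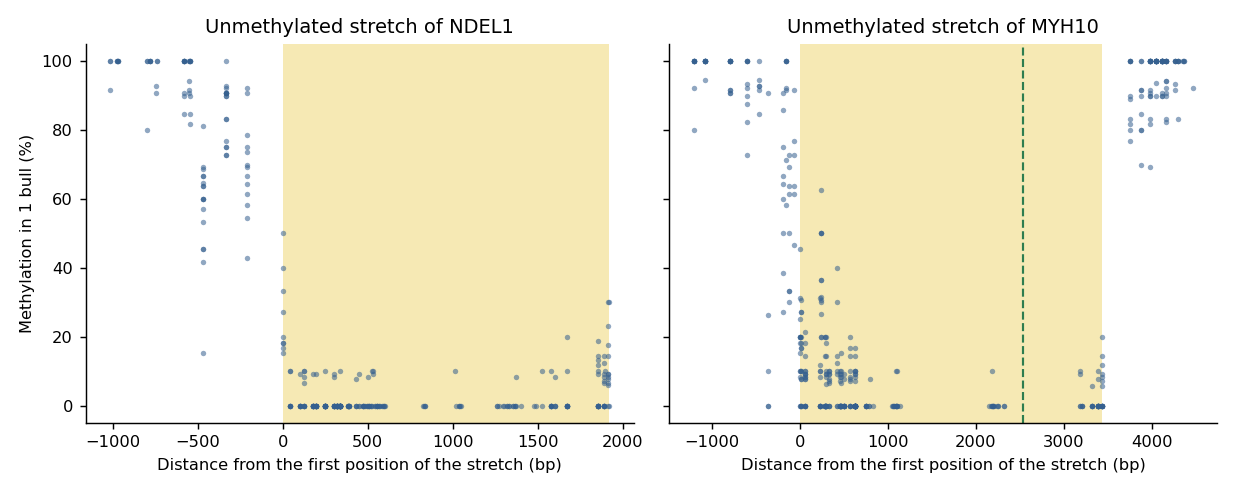
The unmethylated stretches of NDEL1 and MYH10. Each point is the methylation in percent of 1 position in 1 bull, against the distance in bp from the first position of the stretch, and the flanks are included. Values in the stretches cluster at 0 and those outside lie mostly above 80%. Values between are common just outside the steep border of the NDEL1 stretch and the inner border of the MYH10 stretch. They run from 41.7% to 69.2% at 28636669 in NDEL1 and from 30% to 69.2% at 28798559 in MYH10.

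Single low positions were also found away from the stretches, and some that were low in the bulls listing them are described below. Others with a median under 20% were high in some bull, with 100% at 28733966 and 28764077, 90.9% at 28798324 and 71.4% at 28673014. A CpG of NDEL1 at 28654459 and 28654460 was at 0% in every bull that listed it, which was 6 bulls for the first strand and 5 for the other. The median of the listed values within 200 bp was 100%. In MYH10, position 28719122 was at 0% in all 7 bulls that listed it, and 28721995 was at 0% in 7 of 7, with neighbours at medians of 100% and 91.7%. The CpG at 28723268 and 28723269 in MYH10 had a median of 0% on both strands, with single values of up to 33.3%. In NDEL1, 28656177 was at 0% in 5 of the 6 bulls listing it and at 20% in the other. These positions were low in bulls of both high and low groups, and the bulls' sequence was not examined. A cytosine replaced by thymine in a bull also reads as 0% in bisulfite data, so an unmethylated CpG and a base change cannot be told apart at these positions, including the CpG at 28654459.

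At the level of the whole gene, bulls differed little in MYH10 and more in NDEL1. The mean over listed positions of MYH10 was 90.8% in H01, 91.8% at the median and 95.1% in L03. For NDEL1 it was 82.2% in L05, 89.6% at the median and 94.0% in L08, a range of 11.8 points. The share of a bull's NDEL1 positions that fell in the unmethylated stretch ran from 0% in H01 to 13.3% in L05, with a median of 4.43%. L05 and H02, which had the largest shares (13.3% and 10.5%), also had the lowest NDEL1 means (82.2% and 84.2%). Without the stretch, NDEL1 means lay between 92.2% in H01 and 95.5% in H04, a range of 3.26 points, and MYH10 means between 92.6% and 95.5%. Among the 25 genes fine-mapped for gestation length, MYH10 ranked the 5th and NDEL1 the 8th by the median of bull means, and DNAH2 the 10th. The neighbours in this order lay within the spread between bulls, since NRG2 and WWP2, next to MYH10, had medians of 92.4% and 91.8%, and CDKL1 and CYSTM1, next to NDEL1, 90.2% and 89.4%.

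**Figure D3:**
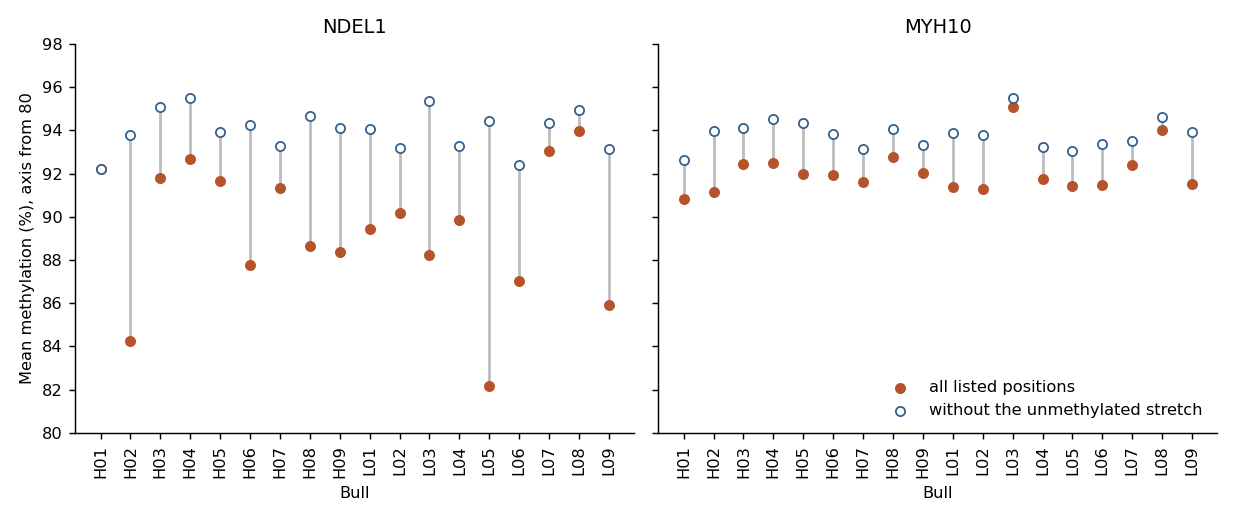
Mean methylation of NDEL1 and MYH10 in each of the 18 bulls. The vertical axis is in percent and starts at 80, filled points use all listed positions, and open points leave out the unmethylated stretch. The filled NDEL1 points range from 82.2% to 94.0% and the open ones from 92.2% to 95.5%.

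Within the same bull, MYH10 was methylated 2.73 points above NDEL1 on average (SD 3.05, n = 18), and it was higher in 15 of 18 bulls (two-sided permutation test on signs within bulls, p = 0.00091, Benjamini-Hochberg adjusted 0.00137 over 3 gene pairs). When positions with a median under 20% were left out, the order turned, and MYH10 lay below NDEL1, with a difference of -0.411 points (permutation p = 0.0272). NDEL1 held the larger share of positions with a median under 20%, as given above. Against DNAH2, MYH10 was 3.38 points higher (SD 1.79) and higher in 17 of 18 bulls (permutation p = 1e-05, the smallest that 100000 permutations can give, adjusted 3e-05). Over gene bodies without flanks this difference was 0.788 points (permutation p = 0.0885), and over positions listed in at least 9 bulls it was -0.444 points (permutation p = 0.0806). NDEL1 and DNAH2 differed by 0.659 points (SD 3.45), with NDEL1 higher in 13 of 18 bulls (permutation p = 0.422). Without positions of a median under 20% NDEL1 was 1.30 points above DNAH2 (permutation p = 3e-05), and over gene bodies it was below it, at -2.44 points (permutation p = 0.0188). MYH10 stayed above NDEL1 over gene bodies, by 3.23 points (permutation p = 0.00062). Over positions listed in at least 9 bulls it was above NDEL1 by 4.89 points (permutation p = 2e-05). Without positions of a median under 20% MYH10 was 0.892 points above DNAH2 (permutation p = 0.00078). The order of these 3 genes on BTA19 therefore differed with the positions compared.

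The number of positions that a bull listed stood in for its depth. No relation with it was detected for MYH10 methylation over 18 bulls (Pearson r = -0.0501, permutation p = 0.823, and Spearman rho = -0.0795, permutation p = 0.757, with adjusted values of 0.823 and 0.757 over 2 genes). Without H01 and H08, which listed the fewest and the most, r was -0.529 (permutation p = 0.0299) and rho -0.45 (permutation p = 0.0838). The value over 18 bulls in MYH10 therefore rested on those 2 bulls. For NDEL1, r was -0.319 (permutation p = 0.197) and rho -0.253 (permutation p = 0.312), with adjusted values of 0.394 and 0.624, and r was -0.179 without H08 and L05 (permutation p = 0.506). The genes whose bull means were most like those of MYH10 by Spearman's rho over 18 bulls, among the fine-mapped genes outside the pair, were ZNF16 (0.373), DNAH2 (0.364) and CYSTM1 (0.350). For NDEL1 they were HCFC2 (0.604), ADCK5 (0.474) and CPSF1 (0.333), and MYH10 and NDEL1 had a rho of 0.362 with each other. Negative values were of like size or larger, with ARHGAP39 (-0.492) for MYH10, and FBXL6 (-0.629, 15 bulls) and SLC52A2 (-0.593, 16 bulls) for NDEL1. The fewest positions listed in a bull were 11 for HCFC2, 3 for ADCK5 and 9 for CPSF1. These values are descriptions, since the genes share libraries, depth and the choice of listed positions.

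The gene means were next compared between high and low bulls of each trait. In MYH10 the high-GL bulls were at 92.4%, 92.0%, 95.1% and 91.4% (H03, H09, L03, L05) and the low-GL bulls at 91.2%, 92.0%, 91.4% and 92.4% (H02, H05, L01, L07). The groups overlapped, with means of 92.7% ± 1.60 (SD, n = 4) and 91.7% ± 0.568 (n = 4) and a difference of 1.01 points (exact permutation test, two-sided, p = 0.229). In NDEL1 the high-GL bulls were at 91.8%, 88.4%, 88.2% and 82.2% and the low-GL bulls at 84.2%, 91.7%, 89.4% and 93.0%, in the same order. These groups overlapped as well, with means of 87.6% ± 4.0 and 89.6% ± 3.87 and a difference of -1.96 points (exact permutation p = 0.486). Without the run of 18 positions that defines the NDEL1 stretch the difference was -2.19 points (exact permutation p = 0.457). Without the extended stretch, a setting chosen after the data were seen, it was 0.737 points, with the opposite sign (exact permutation p = 0.0571, adjusted 0.571 over the 10 comparisons of 2 genes and 5 traits).

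For the other traits, with 3 bulls against 3, an exact permutation test cannot go below p = 0.1. The differences in MYH10 were 0.346 points for SCE (exact p = 0.5), 1.65 for BDE (exact p = 0.4), -0.388 for CCR (exact p = 0.8) and -1.10 for SCR (exact p = 0.5). Those in NDEL1 were 2.46 points for SCE (exact p = 0.4), -1.27 for BDE (exact p = 0.7), -1.21 for CCR (exact p = 0.9) and 0.145 for SCR (exact p = 1). No difference of a gene mean passed the test for any trait, with adjusted values from 0.833 to 1, and bulls of the groups overlapped in each of the GL comparisons. For GL, with 4 bulls against 4, the smallest p that the exact permutation test can give was 0.0286. After adjustment over the 10 comparisons no value could therefore go under 0.05, so the adjusted values decide nothing about small differences.

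Differences were then sought in tiles of 2000 bp. Tiles in which each bull of a trait listed 1 position or more were tested. A tile with q under 0.01 and a difference over 5 points in a logistic regression was called a differentially methylated region (DMR). These limits were those of the study, with a simpler form of its q value. The difference pools the positions of a group's bulls. The windows of MYH10 and NDEL1 touched 94 tiles, and 92 of them were listed in at least 9 bulls. Of these, 76 had a mean over bulls of at least 90%, 13 lay between 80% and 90%, and 3 lay below 80%. In 2 tiles the mean was under 20%: the NDEL1 tile from 28638001 was at 4.10% (15 bulls) and the MYH10 tile from 28800001 at 1.30% (8 bulls), and neither could be tested for any trait, because each trait had a bull that listed no position there. The tiles at the borders of the stretches, from 28636001 in NDEL1 and 28798001 in MYH10, were at 39.4% and 21.5%.

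For GL, 5 of the 73 tested tiles of the pair were DMRs (6.85%), against 8.75% of all tested tiles of the genome. For SCE the count was 3 of 59 (5.08%), against 6.18% of all tiles, and for BDE 5 of 74 (6.76%), against 7.57%. For CCR it was 5 of 77 (6.49%), against 11.1%, and for SCR 2 of 53 (3.77%), against 8.68%. Of these DMRs, NDEL1 held 2 of its 21 tested tiles for GL, 1 of 16 for SCE, 1 of 22 for BDE, 4 of 21 for CCR and 1 of 15 for SCR. MYH10 held 3 of 53, 2 of 44, 4 of 53, 1 of 57 and 1 of 39 in the same order, and differences from the background were not tested. The bulls of the groups did not overlap in 1 member tile for GL, 6 for SCE, 9 for BDE, 12 for CCR and 7 for SCR (1.37%, 10.2%, 12.2%, 15.6% and 13.2% of those tested). The background was 3.30% of all tiles for GL, 9.28% for SCE, 10.1% for BDE, 9.95% for CCR and 9.12% for SCR. The median size of the difference over member tiles was 1.61 points for GL, against 1.95 over all tiles, and 1.86 to 2.68 points for the other traits, against 2.34 to 2.45.

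The logistic test takes reads as independent and holds no term for the spread between bulls. With limma on log2 ratios of methylated to unmethylated reads, no member tile was called for any trait, nor was any of the tested tiles of the genome, and 3, 3, 3, 1 and 2 member tiles had an unadjusted p under 0.05 with a difference over 5 points for GL, SCE, BDE, CCR and SCR. Of all tiles, 3.59%, 3.30%, 3.84%, 3.61% and 3.40% met that limit. An F test with overdispersion also called none, of the members or of the genome, with 2, 1, 4, 2 and 2 member tiles at the same limit, which 3.69%, 3.41%, 3.70%, 3.37% and 2.72% of all tiles met. The comparison was repeated at matched positions, meaning those that both groups listed in some bull, with positions as strata of a Cochran-Mantel-Haenszel test. It called no member tile for GL, BDE and SCR and 1 each for SCE and CCR, where 2.19%, 1.31%, 1.60%, 4.40% and 1.17% of all tiles were called for GL, SCE, BDE, CCR and SCR. At an unadjusted p under 0.05 with a difference over 5 points it gave 5, 7, 5, 8 and 2 member tiles, against 9.73%, 11.4%, 11.4%, 14.6% and 10.7% of all tiles.

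The 20 calls fell in 15 tiles, 10 touching MYH10 and 5 in NDEL1, and 3 tiles were called for more than 1 trait. The traits share bulls, and the share of all tiles called for more than 1 trait was not computed, so this count has no background. The difference was smaller at matched positions for 19 of the 20, with a median size of 3.31 points against 11.2 over all listed positions, and it changed sign for 5. These tiles were called on their difference over all listed positions, so smaller sizes at matched positions are partly a property of the choice. Over all tested member tiles, median sizes at matched positions were 1.12 (GL), 1.94 (SCE), 2.45 (BDE), 1.76 (CCR) and 1.72 points (SCR). Over all listed positions they were 1.61, 2.68, 1.98, 2.36 and 1.86 points. None of the 20 was called at matched positions. Leaving out some single bull ended 17 of the calls. Shares over all called tiles of the genome were not computed for these counts. The 3 that were called whichever bull was left out were the GL gain beside the end of MYH10 and the SCE and BDE losses at the borders of the stretches.

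**Figure D4:**
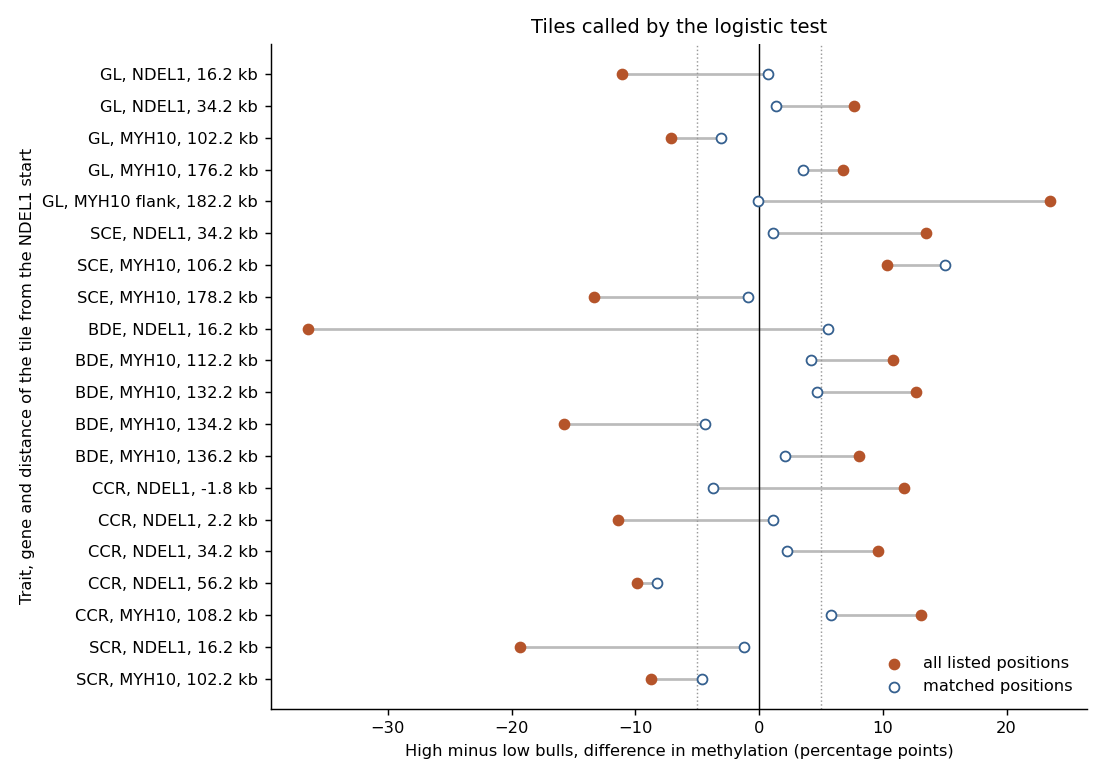
Differences of the 20 called tiles of MYH10 and NDEL1. The horizontal axis is the difference between high and low bulls in percentage points, rows name the trait, the gene and the distance in kb of the tile from the NDEL1 start, filled points use all listed positions, and open points use matched positions. Open points lie nearer to 0 than filled ones for 19 of 20 tiles.

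The NDEL1 tile from 28636001 to 28638000 covers the steep border of the unmethylated stretch, and it was called for GL, BDE and SCR. Its mean was 18% in H03, 82.3% in H09, 16.8% in L03 and 9.31% in L05 among high-GL bulls, and 2.83% in H02, 39.5% in H05, 39.4% in L01 and 82.5% in L07 among low-GL bulls. Both groups spanned nearly the same range, and the pooled GL difference was -11.0 points (q = 0.000277), against 0.708 points at 21 matched positions and -0.236 points without positions of a median under 20%. H02 listed 17 positions in the tile, all of them inside the stretch, whereas H09 listed 6 and L07 listed 4, none of them inside it. The 15 bulls that listed stretch positions had tile means of 2.83% to 54.2%, and the 3 that listed none had 69.6% to 82.5%. Outside the stretch, the tile was at 61.2% to 92.6% in the former, apart from H02, which listed no position there. The split of tile means between the 15 and the 3 bulls follows from choosing the stretch by its low values. For BDE the high bulls were at 2.83%, 16.8% and 47.0% and the low bulls at 39.5%, 82.3% and 30.1%, and the difference of -36.5 points had q = 1.07e-17. At 9 matched positions the BDE difference was 5.59 points, of opposite sign, and without positions of a median under 20% it was -12.3 points, of the same sign as the call. Those positions had given 24 of the 29 values of high-BDE bulls and 7 of the 22 of low-BDE bulls, so few high values were left. Position 28637138, inside the stretch with a median of exactly 20%, was kept. It was at 20% in H02, 40% in L03 and 50% in L08, and at 33.3% in H05 and 15.4% in L02 of the low bulls. For SCR the high bulls H01, H02 and H03 were at 69.2%, 2.88% and 17.5% and the low bulls L01, L02 and L03 at 42.7%, 27.8% and 17.6%. The means over these bulls were 29.9% and 29.4%, and the groups overlapped. The pooled difference was -19.3 points (q = 2.8e-08), and H02 gave 17 of the 31 values of the high bulls. It was -1.25 points at 14 matched positions and -9.16 points without positions of a median under 20%. The last value weights positions equally and not by reads, and so weighted the difference over all positions was -17.4 points. Positions with a median under 20% made up 25 of the 31 values of high-SCR bulls and 17 of the 30 of low-SCR bulls.

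At the other border tile, from 28802001 to 28804000 just beyond the listed end of MYH10, the high-GL bulls gained methylation by 23.5 points (q = 2.74e-12). The high-GL bulls H03, H09, L03 and L05 were at 80%, 95.5%, 83.1% and 93.9%, and the low-GL bulls H02, H05, L01 and L07 at 60.5%, 74.8%, 51.0% and 85.6%. L07 lay above H03 and L03, and the means were 88.1% ± 7.72 (SD, n = 4) and 68.0% ± 15.3. Positions with a median under 20% made up 2 of the 30 values of high-GL bulls and 14 of the 44 values of low-GL bulls. Without them the difference was -0.151 points, and at 15 matched positions it was -0.0857 points. Over all 18 bulls, the 11 that listed stretch positions in this tile had means of 51.0% to 85.6%, and the 7 that listed none had 84.7% to 100%. As in the other border tile, this split follows from choosing the stretch by its low values. The adjusted p of limma was 0.980 for this tile (log2 difference 1.82, SE 0.66).

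The MYH10 tile from 28798001 to 28800000, at the inner border of its stretch, had lost 13.3 points in high-SCE bulls (q = 1.05e-05). High-SCE bulls H03, H07 and L02 were at 9.58%, 10.2% and 5.12% and low-SCE bulls H01, H06 and L09 at 23.8%, 22.0% and 16.6%, without overlap. At 15 matched positions the difference was -0.910 points. Of the values in the tile, 37 of 40 in high-SCE bulls and 24 of 32 in low-SCE bulls came from positions with a median under 20%. Without those positions the difference was larger, at -35.1 points, and rested on 3 values of high-SCE and 8 of low-SCE bulls.

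The NDEL1 tile from 28654001 to 28656000, which holds the CpG at 0% described above, was called for GL, SCE and CCR. High-GL bulls were at 97.2%, 97.5%, 97.5% and 88.2% (H03, H09, L03, L05) and low-GL bulls at 85.1%, 85.7%, 88.3% and 86.9% (H02, H05, L01, L07), a gain of 7.63 points (q = 0.0015). All 4 low-GL bulls and L05 listed the CpG, and H03, H09 and L03 did not. Without this CpG the GL difference was 1.04 points, and at 21 matched positions it was 1.35 points. For SCE the high bulls were at 97.2%, 92.0% and 100% and the low bulls at 0%, 86.0% and 83.3%, where the 0% of H01 was 1 position of this CpG. The 100% of L02 was 1 position as well. The SCE difference of 13.5 points became -0.236 points without the CpG. For CCR the high bulls H08, H09 and L06 were at 93.3%, 97.5% and 97.2% and the low bulls H06, L08 and L09 at 86.0%, 89.0% and 83.3%, and the difference of 9.61 points was 2.30 points without the CpG. Over all bulls, the 10 that listed it had a median tile mean of 86.5% and the 8 that did not had 97.4%. This gap follows largely from the 0% of the CpG itself, since the tile mean includes it.

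In NDEL1, CCR also gave calls in the tiles from 28618001, 28622001 and 28676001. The first, at the listed start of the gene, had a gain of 11.7 points, which was -3.74 points at 3 matched positions. H06 was at 66.7% there and the other 5 bulls at 97.2% to 100%. H06 listed 3 positions, and L08 and L09, both at 100%, listed 2 each. In the second the high-CCR bulls were at 80.7%, 100% and 100% (H08, H09, L06) and the low-CCR bulls at 95.5%, 98.3% and 85.8% (H06, L08, L09), which overlapped, with means of 93.6% and 93.2%. H08 gave 18 of the 21 values of the high bulls, and the pooled difference of -11.4 points was 5.16 points without H08, 1.11 points at 14 matched positions and -7.70 points without positions of a median under 20%. In the tile from 28676001 to 28678000, near the MYH10 junction, the high-CCR bulls were at 92.4%, 89.3% and 73.5% (H08, H09, L06) and the low-CCR bulls at 95.0%, 97.7% and 100% (H06, L08, L09). The groups did not overlap, though the 100% of L09 was 1 position. The difference of -9.90 points was -8.22 points at 15 matched positions (q = 0.0141). Without L06 the pooled difference was -4.45 points, and the call was lost.

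In the body of MYH10, the tile from 28722001 to 28724000 was called for GL and SCR. High-GL bulls were at 83.8%, 77.5%, 100% and 89.6% and low-GL bulls at 91.8%, 97.4%, 94.6% and 80%, which overlapped, and the pooled loss of -7.14 points was -3.09 points at 24 matched positions and -0.712 points without positions of a median under 20%. For SCR the high bulls H01, H02 and H03 were at 79.2%, 91.5% and 82.9% and the low bulls L01, L02 and L03 at 94.8%, 95.6% and 100%, without overlap. In both comparisons the 100% of L03 rested on 1 position and the value of H03 on 3. The other SCR bulls listed 13 to 22 positions. The SCR difference of -8.77 points was -4.59 points at 20 matched positions and -2.72 points without positions of a median under 20%. With positions weighted equally, as in the last value, the SCR difference over all positions was -8.43 points. A further GL gain of 6.80 points in the tile from 28796001 was 3.54 points at 10 matched positions and was lost on leaving out any 1 of 5 bulls.

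BDE calls in the body of MYH10 lay in the tile from 28732001 and in 3 adjoining tiles from 28752001 to 28758000. The tile from 28732001 had a gain of 10.8 points, and 4.20 points at matched positions. This call was lost on leaving out any 1 of 5 bulls, and with Benjamini-Hochberg in place of SLIM adjustment (q = 0.0117). Of the adjoining tiles, the first gained 12.6 points, the middle one had a difference of -15.8 points and the last gained 8.06 points. At matched positions these differences were 4.68, -4.37 and 2.09 points. In the last tile the high-BDE bulls were at 97.0%, 97.4% and 98.2% (H02, L03, L08) and the low-BDE bulls at 88.2%, 92.5% and 87.4% (H05, H09, L02), without overlap. Without its positions with an SD over 20 points between bulls the difference was 2.07 points. In this block of 3 tiles, 6 of 37 positions listed in at least 6 bulls (16.2%) had a median between 20% and 80%, against 27 of 892 (3.03%) in the rest of MYH10 outside its stretch. The block was singled out after its calls were seen.

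The SCE call from 28726001 to 28728000 in MYH10 was the only one of the 20 with a larger difference at matched positions. High-SCE bulls H03, H07 and L02 were at 95.7%, 100% and 97.2% and low-SCE bulls H01, H06 and L09 at 76.6%, 95.7% and 76.2%. H06 lay a little above H03, so the groups overlapped at their edge. The difference was 10.3 points (q = 0.00269), and 15 points at 8 matched positions (q = 0.0164). Without 1 variable position of the tile, 28726686, the difference was 2.46 points. The last CCR call, in the MYH10 tile from 28728001, was a gain of 13.1 points, and 5.78 points at 9 matched positions, and it was lost without H06.

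The positions that varied most between bulls lay in MYH10. Of 463 positions listed in at least 9 bulls, the median SD between bulls was 5.21 points, 42 had an SD over 10 points and 15 over 20 points, and all 15 lay in MYH10, which held 381 of these positions against 99 in NDEL1. The median SD was 5.19 points in MYH10 and 5.29 in NDEL1. The largest SD in NDEL1 was 15.7 points, at 28676292. The most variable position, 28726686, lay 47.0 kb from the listed start of MYH10 and had an SD of 38.3 points over 10 bulls. It was at 0% in H01, 9.09% in L04, 50% in L01, 60% in L09, 63.6% in H05, 92.3% in H08 and 100% in H03, H07, L07 and L08. The values thus spanned the whole scale from 0% to 100%, while the median of listed values within 200 bp was 90%.

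Position 28764076 had an SD of 36.7 points over 9 bulls. It was at 0% in H06, L02 and L04, at 40% in L07, 50% in H05, 63.6% in L06, 72.7% in L03 and 80% in L09, and at 92.9% in H08, beside neighbours with a median of 93.3%. Position 28767685 had an SD of 36.0 points over 10 bulls, with 3 bulls at or under 20%, 5 between 20% and 80% and 2 at or over 80%. Its neighbours within 200 bp had a median of 100%. The positions 28757920 and 28757921, with SDs of 35.4 and 34.5 points over 9 and 10 bulls, are the strands of 1 CpG inside the BDE block. H06 and L04 were at 0% on both strands, H01 and L02 at 0% on the strand that each listed, and H03 and H04 at 100% on the strand that each listed. In the 5 bulls that listed both strands, the median gap between them was 6.67 points.

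Strands gave like values over the whole region. Over 2272 pairs of strand values from the same bull and CpG, the median gap was 5.88 points, and 12 pairs (0.528%) differed by over 30 points. Bulls at 0% differed from position to position, since H06 was at 0% at 28764076 and at 100% at 28767685. As at the single low positions, these values cannot tell methylation from a base change carried by some bulls.

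**Figure D5:**
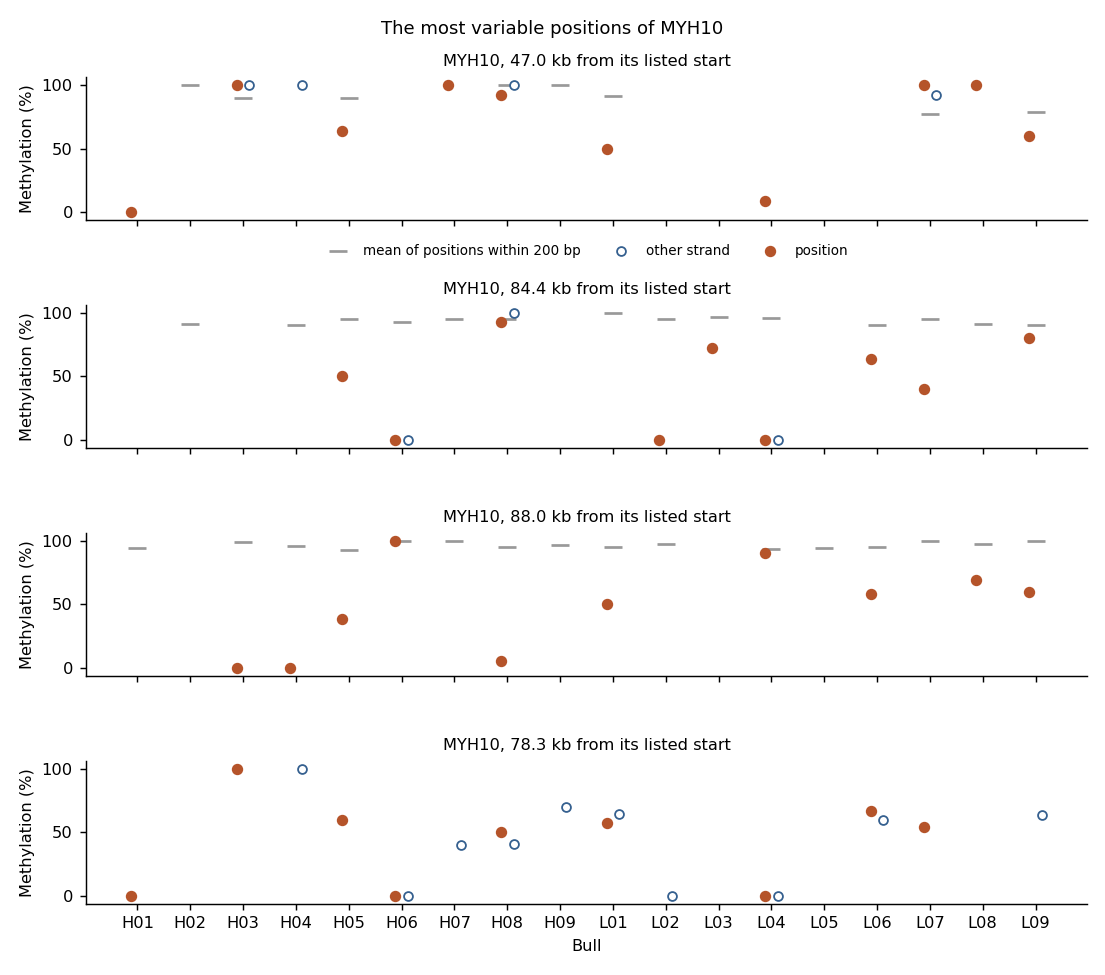
Methylation of the most variable MYH10 positions in each bull. The vertical axis is in percent and the horizontal axis gives the bulls, filled points are the position, open points its other strand, and grey bars the mean of positions within 200 bp in the same bull. Filled points spread from 0 to 100 while most grey bars stay near the top.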

How the data were processed

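Sperm DNA of 18 Holstein bulls was bisulfite-converted and sequenced in 150-bp paired-end reads. The authors trimmed reads with Trim Galore 0.4.0 after FastQC 0.11.2, mapped them to UMD 3.1 with Bowtie2 and called methylation with Bismark 0.14.5. The authors deposited methylation in percent for CpG positions with at least 10 reads, and for 6 bulls also the count of reads. Depth of the other 12 bulls is not given, so each position counted as 10 reads, except in SCR, where the listed counts were used (10 reads at matched positions). The design had assumed counts for all bulls.

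Gene positions came from the study's list of fine-mapped genes. Tiles of 2000 bp were fitted over the whole genome by logistic regression, and printed for the members only. The q values named SLIM here were Benjamini-Hochberg values times an estimated share of tiles without a difference. This is a simpler form of the study's SLIM method. For GL it called 51871 of 593044 tiles, fewer than the study reported. The alternatives were an F test with overdispersion, limma 3.58.1 in R 4.3.3 and a Cochran-Mantel-Haenszel test at matched positions. Limma was run on log2 ratios with 1 read added, with Benjamini-Hochberg adjustment. All were tested on simulated data, in which the bulls of a group shared 1 level per tile. The simulation therefore does not show how the tests handle spread between bulls. Mean levels were compared by two-sided permutation tests with Python 3.11.15 and scipy 1.17.1. No interval for single bulls was computed. The permutation, limma and F tests use the spread between bulls, whereas the logistic and Cochran-Mantel-Haenszel tests treat reads as independent. Named tiles were those called for at least 1 trait, at most 8 per trait, and those with a mean under 20%. Named stretches were the runs defined in the report, named positions were the 5 with the largest SD between bulls of those listed in at least 9, and named like genes were the 3 with the highest rho. The low single positions and the extended stretches were chosen after their values were seen. The members and lists were chosen with earlier results of these data known. Sequences and promoters were not analysed here.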

Additional observations from a re-analysis of the deposited data

Results flagged for a closer look

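In the NDEL1 tile from 28636001, H09 stood apart from the other high-GL bulls at 82.3%, where the others were at 9.31% to 18%. It listed 6 positions in the tile, all outside the unmethylated stretch, and the others listed 9 to 42, most of them inside it. In the NDEL1 tile from 28654001, L05 stood apart at 88.2%, where the other high-GL bulls were at 97.2% to 97.5%, and it was the only one of the 4 that listed the CpG at 0%. Both gaps exceeded Dixon's 95% critical value for 4 samples. In all, 14 groups were checked and 2 stood out, where chance flags about 1 in 20 in samples from a normal distribution. Most of the groups came from tiles already called on the values of these bulls. The means of those tiles also rest on unequal numbers of positions, so 1 in 20 is no firm yardstick here.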

How the results depend on the processing

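Depth limits these results, since medians of 11 reads per position outside the stretches, in the bulls with coverage, leave single values coarse, and bulls list different positions. No gene mean passed its test under any setting run, but with 3 bulls against 3, or after adjustment over the 10 comparisons, none could. Differences of gene means that changed sign were, for MYH10, SCE at -0.268 position-adjusted, -0.268 with strands merged and -0.401 relative to the chromosome 19 mean, CCR at 0.283 relative to that mean, and SCR at 0.055 without the stretches and 0.672 relative to that mean. For NDEL1 they were GL at 0.745 position-adjusted and 0.737 without the extended stretch, BDE at 0.740, 1.64 without the stretch and 0.951 without the extended stretch, and SCR at -1.35 and -0.491. Leaving out 1 bull gave MYH10 ranges of 0.235 to 1.44 for GL, 0.0165 to 0.598 for SCE, 0.823 to 2.78 for BDE, -0.883 to 0.387 for CCR (0.387 without L08) and -1.75 to 0.142 for SCR (0.142 without L03). For NDEL1 the ranges were -3.75 to -0.137 for GL, 1.11 to 4.26 for SCE, -3.85 to 1.02 for BDE (1.02 without H02), -2.85 to 1.17 for CCR (1.17 without L08) and -1.26 to 2.73 for SCR, where leaving out H01, H03 or L03 turned the sign. Within bulls, over positions listed in at least 9 bulls, NDEL1 was below DNAH2 by a difference of -5.33 points (permutation p = 2e-05) and MYH10 by -0.444, gene bodies gave -2.44 and 0.788, and leaving out positions with a median under 20% gave -0.411 for MYH10 minus NDEL1 and 1.30 for NDEL1 minus DNAH2. Without the extended stretch the NDEL1 correlation with listed positions was 0.128.

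The F test and limma called 0 member tiles for each trait, and 0 of all tiles of the genome. At matched positions the counts were 0 for GL, 1 for SCE, 0 for BDE, 1 for CCR and 0 for SCR. With a threshold of 10 points they were 2 for GL, 3 for CCR and 1 for SCR, against 4.90%, 7.09% and 5.64% of all tiles. For SCE and BDE the counts were 3 of 59 (5.08%) and 4 of 74 (5.41%), against 4.65% and 5.53%. With at least 3 positions per tile and bull they were 0 of 42 for CCR and 0 of 23 for SCR, against 11.4% and 9.33% of all tiles. For GL, SCE and BDE the counts were 4 of 42 (9.52%), 2 of 28 (7.14%) and 4 of 40 (10%). These shares lay above those of all tiles, at 8.77%, 6.63% and 8.15%. With tiles shifted by 1000 bp they were 1 of 74 for BDE and 1 of 61 for SCR, against 7.49% and 8.75%. With 13 reads per position they were 7 of 59 for SCE and 8 of 74 for BDE, against 10.1% and 11.6%, where more of all tiles were called as well. Fewer tiles are tested with at least 3 positions, and otherwise the cause was not tested. Leaving out 1 bull gave 3 to 5 tiles for GL (3 without H05), 3 to 8 for SCE (8 without H06, 6 without H07, 5 without L09), 4 to 5 for BDE, 4 to 9 for CCR (9 without L09, 8 without H08 or H09) and 3 to 4 for SCR (4 without H02, L02 or L03). The shares of all tiles called were then 7.84% to 9.12%, 6.17% to 6.80%, 6.93% to 7.79%, 8.53% to 16.9% and 8.47% to 9.38%. With at least 15 listed reads no SCR member tile was left. Single tiles changed sign at matched positions, GL 28636001 at 0.708, GL 28802001 at -0.0857, BDE 28636001 at 5.59, CCR 28618001 at -3.74 and CCR 28622001 at 1.11. Without positions of a median under 20%, a setting chosen after seeing the data like those with the extended stretches, the grouped bulls only and the variable positions, GL 28802001 was at -0.151, SCE 28654001 at -0.236 and CCR 28618001 at -2.57. Leaving out 1 bull gave -27.6 to 2.69 for GL 28636001 (2.69 without L05), -2.57 to 17.4 for CCR 28618001 (-2.57 without H06) and -13.2 to 5.16 for CCR 28622001 (5.16 without H08). High and low bulls were not compared in pairs, because the labels do not match them to each other. Only genes of the same bull were paired.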

Other observations

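In NDEL1, a run of 129 bp from 28676222 to 28676350, near the junction with MYH10, was singled out after its values were seen. The medians over bulls of its 7 positions lay between 9.09% and 89.2%, all under 90%, the lowest being a position listed in L06 alone. L06 listed all 7, with a mean of 50.3%, and its other 9 positions in the tile were at 91.5%. The other 13 bulls that listed part of the run had means of 50% to 100% over 1 to 5 positions. This run lies in the tile called for CCR.

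At matched positions, the Cochran-Mantel-Haenszel test called 2 MYH10 tiles that the logistic test did not. It counted each position as 10 independent reads. The tile from 28750001 had a difference of 15.3 points for SCE at 7 positions. Position 28750815, listed in 1 bull on each side, was at 100% in H03 and 0% in H01, and the other 6 differed by -4.55 to 10 points. The tile from 28744001 had a difference of -8.36 points for CCR at 32 positions, where H08 was at 0% at 28744183, 28744270 and 28744271.

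The bulls without a group, H04 and L04, had MYH10 means of 92.5% and 91.7% and NDEL1 means of 92.7% and 89.9%.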
